A study of Rattus norvegicus with 12 samples.

Results

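A set of 102 genes was lower in OC1 cells given siRNA 1423 than in control cells while their group means with siRNA 1928 lay close to control. The set was chosen by its own expression values, out of 23978 genes in the table. CPM, the count of a gene per 1000000 counts of its library, was averaged over the 4 libraries of each group. A gene was chosen if its mean over all 12 libraries was 10 CPM or more, the log2 ratio of siRNA 1423 to control was -0.3 or lower, the log2 ratio of siRNA 1928 to control lay between -0.15 and 0.15, and every siRNA 1423 library lay below every control library. Of the 9567 genes that met the CPM floor, 102 met the other conditions. All values for siRNA 1423, siRNA 1928 and control in these genes are therefore a description of what was selected, and the counts of calls given below describe the choice and support nothing.

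Polyadenylated RNA was sequenced in 12 libraries of OC1, a cultured line that the labels describe as sensory epithelium of the cochlea and as rat. Its name resembles that of HEI-OC1, a mouse line of the inner ear; whether both are the same line is not given in the sources used here, and the species behind counts made on a rat build was not checked. One group of 4 received a control siRNA and is labelled wild type, and 2 groups of 4 received an siRNA against Bcl-2, coded 1423 and 1928. The description of control library B adds NC, and its title places it with the controls. All were grown in the same medium and transfected with the same lipid reagent, and the treatment tag of every library names a plasmid although the protocol and descriptions name siRNA. The transfection time, the siRNA sequences and whether the replicates A to D were separate cultures were not stated in any source used here, so the spread between libraries may be technical.

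Bcl-2 is a membrane protein of the mitochondrion and the endoplasmic reticulum that blocks cell death by binding the pro-apoptotic members of its own family. An siRNA is a short RNA duplex, one strand of which is loaded into an Argonaute protein and guides it to messenger RNAs with a matching sequence. Designs with several siRNAs against one target allow transcripts that move with every sequence to be listed apart from those that move with a single one.

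The deposited table identifies genes by Ensembl ID alone, and the reference table used here lists an Ensembl ID for 0 of its entries, so none could be looked up. Bcl2 itself and the marker genes of the labelled cell type were therefore not analysed here, and neither the knockdown nor the cell type was checked. Genes of the set are identified by their rank, with rank 1 for the lowest ratio of siRNA 1423 to control, and the first 2 also by ID. Their functions, positions and sequences were not analysed here. Because RNA was taken from whole cultures, less RNA per cell and fewer cells expressing a gene cannot be told apart.

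Library totals ran from 15671546 to 23247593 expected counts, and the ranges of the 3 groups overlapped. The scarcest measurement in the set was 120 expected counts for a gene in a library, and the median gene had at least 591 in each library. Genes of the set had a median coefficient of variation of 4.55% among control libraries, 5.17% with siRNA 1423 and 4.52% with siRNA 1928. Over all 9567 genes at the floor these medians were 4.44%, 4.25% and 4.17%. Counting error alone would give a median of 3.30%, 3.91% and 3.36% for the genes of the set.

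Most of the 102 genes were only slightly past the limit. The median log2 ratio of siRNA 1423 to control was -0.38, a fall of 23.1%, with quartiles of -0.44 and -0.34. In 63 of the genes the ratio lay between -0.4 and -0.3. It was -0.5 or lower in 18 genes, -0.7 or lower in 6, and -1 or lower in 1. Over all genes at the floor the median ratio was -0.0027, and the 10th percentile was -0.18 and the 90th was 0.16. The standard error of the ratio, from the 4 libraries of each group on the log2 scale, had a median of 0.054 and ran from 0.016 to 0.18. With siRNA 1928 the median log2 ratio to control was -0.0064, with 57 genes below control and 45 above.

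**Figure D1:**
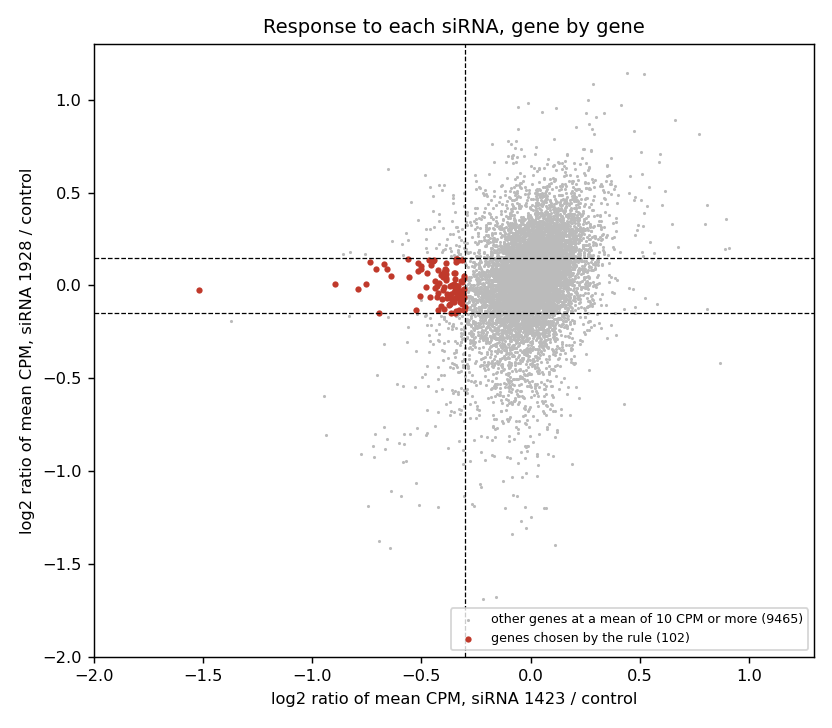
Log2 ratio of mean CPM of siRNA 1423 to control (horizontal) against that of siRNA 1928 to control (vertical) for 9567 genes at a mean of 10 CPM or more, with the limits of the rule as dashed lines. The 102 chosen genes (red) crowd against the limit at -0.3, and 1 of them lies apart at -1.52; both axes share the control libraries.

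The gap between the groups was measured as the distance from the highest siRNA 1423 library to the lowest control library. As a share of that control library it had a median of 13.2% and ran from 0.458% to 59.4%. Although the rule did not ask for it, every siRNA 1928 library lay above every siRNA 1423 library in 92 of the 102 genes. Among the 12731 genes tested, 27.7% showed this pattern, and 12.8% had every siRNA 1423 library below every control library, as all 102 had by the rule. The first share cannot be read as independent support, since genes low with siRNA 1423 and near control with siRNA 1928 had to differ between the siRNAs. Here and below, the genes tested also include genes under the CPM floor, so their shares are not limited to the 9567 at the floor.

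The gene of rank 1, ENSRNOG00000019018, had the lowest ratio of siRNA 1423 to control of all 9567 genes at the floor. It measured 89.5, 84.0, 90.4 and 86.7 CPM in control libraries A to D. With siRNA 1423 it measured 31.4, 34.1, 28.1 and 28.7 CPM, and with siRNA 1928 it measured 86.3, 89.1, 84.3 and 84.4 CPM. All 4 libraries of siRNA 1423 were far below the 8 others, and every siRNA 1928 library lay inside the range of the control libraries. The means were 87.7 ± 2.88, 30.6 ± 2.75 and 86.0 ± 2.26 CPM (SD, n = 4 each). The log2 ratio was -1.52 (SE 0.068) with siRNA 1423 and -0.027 (SE 0.030) with siRNA 1928. Its log2 ratio of siRNA 1928 to siRNA 1423, 1.49, was also the highest of the genes at the floor. Only 2 of those genes had a ratio of siRNA 1423 to control of -1 or lower, and the other was outside the set.

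ENSRNOG00000011052, of rank 2, was more abundant. It measured 207, 220, 220 and 218 CPM in the control libraries A to D, and 111, 114, 119 and 121 CPM with siRNA 1423. With siRNA 1928 it measured 220, 208, 223 and 220 CPM. The lowest control library, A, was still above every siRNA 1423 library by a wide margin, and the siRNA 1928 and control ranges overlapped. Its log2 ratio was -0.90 (SE 0.034) with siRNA 1423 and 0.0098 (SE 0.030) with siRNA 1928.

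The next 4 genes fell by similar amounts from different starting levels. The gene of rank 3 averaged 149 ± 4.73 CPM in control libraries (SD, n = 4 here and below), 86.0 ± 3.96 with siRNA 1423 and 146 ± 3.93 with siRNA 1928. That of rank 4 was scarcer, at 31.96 ± 1.03, 18.9 ± 1.18 and 32.1 ± 2.31 CPM in the same order. For these 2 genes the log2 ratios of siRNA 1423 to control were -0.79 (SE 0.041) and -0.75 (SE 0.051), and siRNA 1928 gave -0.022 (SE 0.030) and 0.0079 (SE 0.059).

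The genes of ranks 5 and 6 were nearer the upper limit for siRNA 1928. Rank 5 averaged 87.6 ± 6.48 CPM in control libraries, 52.6 ± 1.99 with siRNA 1423 and 95.7 ± 4.15 with siRNA 1928. Rank 6 averaged 34.8 ± 1.91, 21.3 ± 1.23 and 36.9 ± 1.00 CPM. Their log2 ratios with siRNA 1423 were -0.74 (SE 0.060) and -0.71 (SE 0.058), and those with siRNA 1928 were 0.13 (SE 0.062) and 0.086 (SE 0.044). In both, 2 of the 4 siRNA 1928 libraries exceeded the highest control library.

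The remaining genes with the 12 lowest ratios were those of ranks 7 to 12. Rank 7 was scarce and uneven, at 17.2, 16.9, 23.2 and 21.4 CPM in control libraries A to D, 10.9, 12.5, 11.0 and 14.1 CPM with siRNA 1423 and 17.8, 16.3, 18.5 and 18.2 CPM with siRNA 1928. Its log2 ratio of siRNA 1423 to control, -0.69, had a standard error of 0.14, and its siRNA 1928 ratio, -0.1499, was the closest of the set to the lower limit. Rank 8 had a ratio of -0.67 (SE 0.071) with siRNA 1423 and 0.12 (SE 0.045) with siRNA 1928, and each of its siRNA 1928 libraries lay above each control library. Ranks 10, 11 and 12 had ratios of -0.64, -0.56 and -0.56 with siRNA 1423. Rank 11 averaged 109 ± 5.16 CPM in control libraries, 73.7 ± 0.578 with siRNA 1423 and 120 ± 3.26 with siRNA 1928. In the main edgeR fit described below it was the 1 gene of the set called higher with siRNA 1928 (adjusted p 0.046). Other settings called 0 to 11 genes of the set higher.

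**Figure D2:**
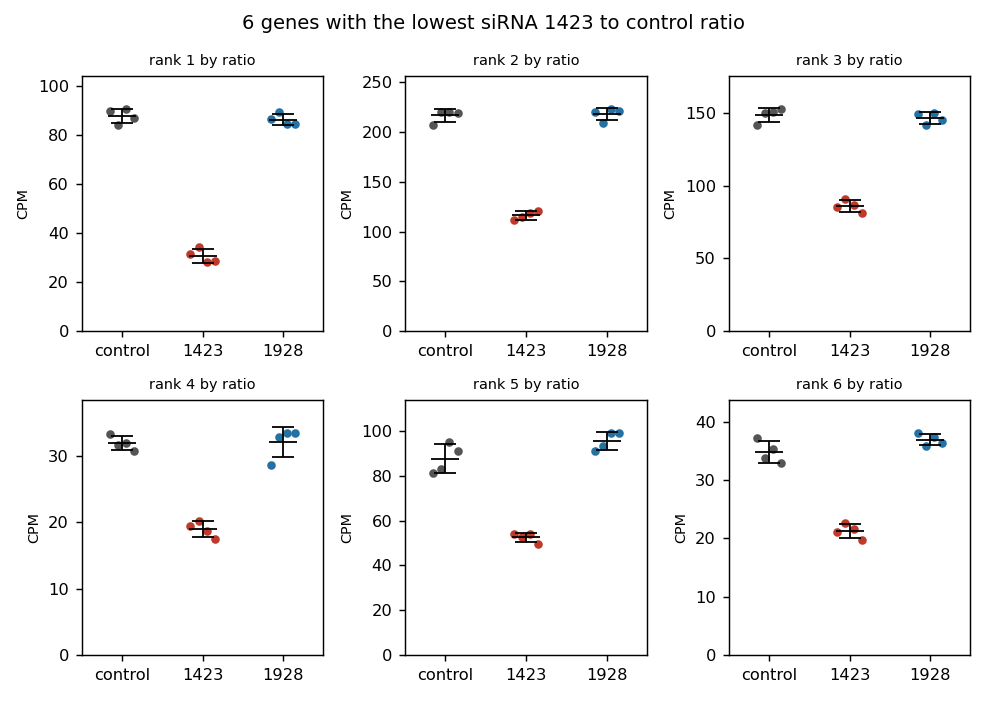
CPM of the 6 genes with the lowest ratio of siRNA 1423 to control, one panel per gene, in the libraries of each group from A to D (points), with the mean and SD of 4 libraries (bars); each vertical axis is linear and starts at 0. In each panel the siRNA 1423 points lie below all others, at 30.6 CPM on average for rank 1 against 87.7 CPM in control libraries.

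The set covered a wide range of abundance. Mean CPM ran from 10.1 to 659 with a median of 42.2, against a median of 49.8 over all genes at the floor. Of the 102 genes, 25 lay under 20 CPM, 34 from 20 to 50, 19 from 50 to 100, 13 from 100 to 200 and 11 above that. These were 1.51%, 1.08%, 0.811%, 0.917% and 1.09% of the genes at those levels. The median ratio of siRNA 1423 to control was -0.38, -0.39, -0.39, -0.40 and -0.34 in the same order. Because the rule cut this ratio at -0.3, no relation of size to abundance is read from these medians.

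Among the 10 most abundant genes of the set, that of rank 9 had the lowest ratio of siRNA 1423 to control. It averaged 301 ± 3.32 CPM (SD, n = 4) in control libraries, 191 ± 6.78 with siRNA 1423 and 320 ± 11.9 with siRNA 1928. Each siRNA 1928 library was above each control library, at 308, 312, 334 and 325 CPM against 304, 298, 304 and 298. Its log2 ratios were -0.66 (SE 0.027) with siRNA 1423 and 0.087 (SE 0.028) with siRNA 1928. The gene of rank 30, at a mean of 607 CPM, measured 664, 647, 642 and 644 CPM in control libraries A to D and 481, 499, 464 and 488 CPM with siRNA 1423. With siRNA 1928 it measured 660, 679, 709 and 705 CPM, which overlapped the control range in 1 library, A. The 6 other abundant genes with a narrow spread, of ranks 34, 66, 79, 83, 98 and 100, had siRNA 1423 ratios of -0.41, -0.35, -0.33, -0.32, -0.31 and -0.30 in that order, with standard errors of 0.019 to 0.033.

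A pair of abundant genes had a far wider spread than others of their level. The gene of rank 82, the most abundant of the set, measured 804, 770, 631 and 710 CPM in control libraries A to D, 629, 514, 614 and 568 CPM with siRNA 1423, and 572, 787, 616 and 688 CPM with siRNA 1928. The gene of rank 74 measured 650, 578, 527 and 530 CPM, then 468, 377, 482 and 481 CPM, then 434, 615, 551 and 590 CPM. In both genes control library A was the highest of its group, siRNA 1423 library B the lowest of its group, and siRNA 1928 libraries A and B the lowest and the highest of theirs. Their siRNA 1423 and control groups were separated by only 0.458% and 8.60% of the lowest control library, and the standard errors of their log2 ratios were 0.10 and 0.11. Only 12 genes of the set had a standard error over 0.1, and the other 10 were among the 59 genes that averaged under 50 CPM. These 2 genes were singled out after their values were seen.

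**Figure D3:**
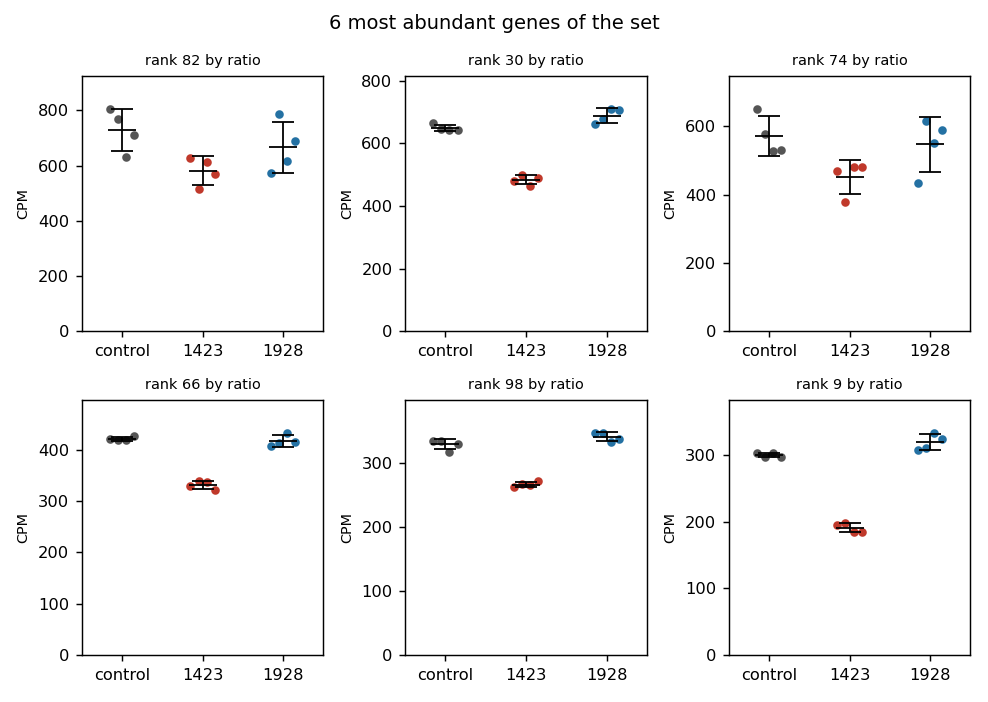
CPM of the 6 most abundant genes of the set in the libraries of each group from A to D (points), with the mean and SD of 4 libraries (bars), one panel per gene, with axes that are linear and start at 0. Ranks 82 and 74 scatter widely in every group, whereas ranks 30, 66, 98 and 9 have siRNA 1423 libraries well below the others.

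Summed over the 102 genes, the set took 9327 ± 110 CPM (SD, n = 4) of the control libraries, 7024 ± 60.3 with siRNA 1423 and 9309 ± 195 with siRNA 1928. The siRNA 1423 sum was 75.3% of the control sum and that of siRNA 1928 was 99.8%. Without the genes of ranks 82 and 74 the percentages were 74.6% and 101%. Per library, the median log2 level of the set relative to the control mean was -0.36, -0.37, -0.39 and -0.40 in siRNA 1423 libraries A to D. In the siRNA 1928 libraries it lay between -0.0090 and 0.013, and in the control libraries between -0.014 and 0.015.

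**Figure D4:**
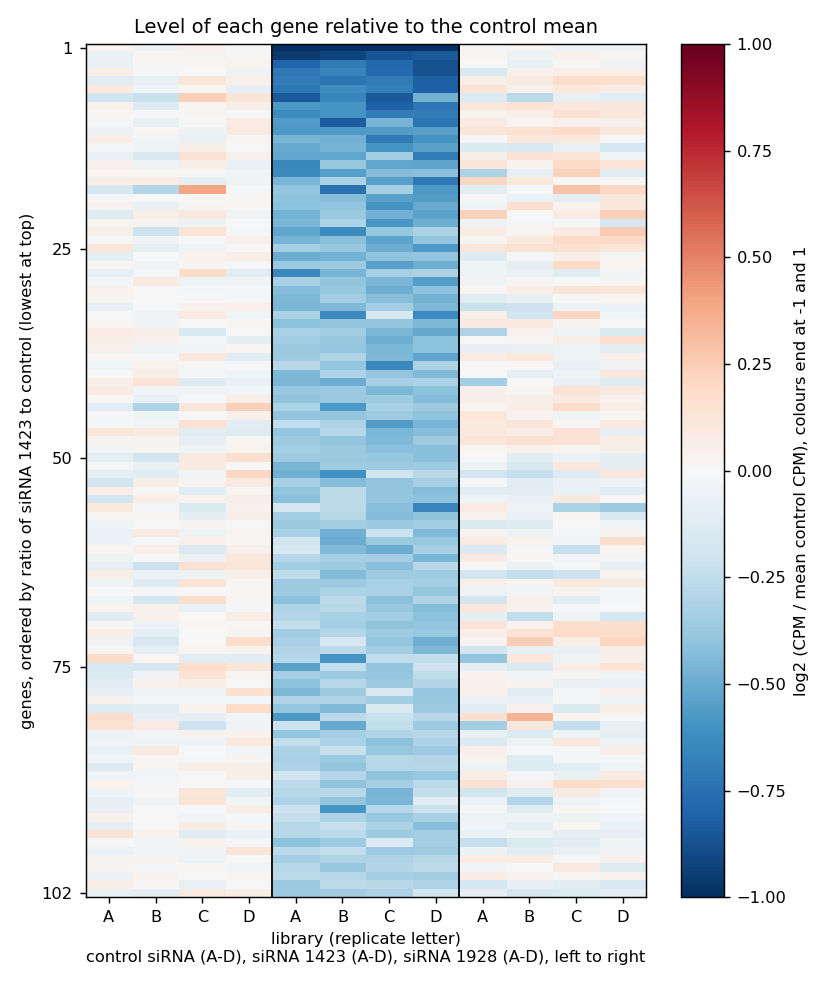
Log2 of CPM over the mean control CPM for the 102 genes (rows, lowest ratio at the top) in the 12 libraries (columns), from blue (lower) to red (higher), with colours that end at -1 and 1. The 4 siRNA 1423 columns are blue in every row, while control and siRNA 1928 columns stay pale in most rows; rank 1, at -1.52, is beyond the end of the scale.

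The position of siRNA 1928 within the set depended on the gene. The siRNA 1928 and control ranges overlapped in 90 of the 102 genes. In 17 genes all 4 siRNA 1928 libraries lay inside the range of the control libraries. All 4 lay above every control library in 7 genes, which had log2 ratios of 0.087 to 0.14, and below every control library in 5 genes, with log2 ratios from -0.13 to -0.044. Among the 12731 genes tested, 26.5% had every siRNA 1928 library above every control library and 14.8% had every one below, and since the rule limited this ratio nothing is read from the lower counts in the set. Genes near control in their mean were therefore not all alike in their libraries.

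The limit of 0.15 on the siRNA 1928 ratio is one of size and not of a test. In the fit across 12731 genes, edgeR's quasi-likelihood test with scaling by trimmed means of M values (TMM) called 19 of the 102 genes lower and 1 higher with siRNA 1928 against control, at an adjusted p under 0.05. Of all genes tested, 23.3% were called lower and 21.8% higher in that comparison, so a smaller share of the set was called, as the rule ensures. The 19 genes had log2 fold changes of -0.204 to -0.071 in that fit, with a median of -0.14. The 82 genes not called had -0.205 to 0.086, with a median of -0.041, so a gene without a call could have fallen as far. The median level of the 19 was 104 CPM, against 32.02 CPM in the 82 genes not called. The median standard errors of the fold change were 0.039 and 0.056.

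This split depended on scaling. With library size alone, edgeR called 9 genes of the set lower and 11 higher with siRNA 1928, where 16.8% of all genes tested were called lower and 30.4% higher. Over all genes tested, increases made up 48.3% of the calls with TMM and 64.4% with library size alone. The rule is on the library size scale, where the median log2 ratio of siRNA 1928 to control over genes at the floor was 0.045, and TMM moved it to -0.012. On the TMM scale the set had a median ratio of -0.063 for siRNA 1928, with 73 genes below control and 29 above, and 15 genes lay below -0.15. The siRNA 1423 ratio hardly moved, from -0.38 to -0.37.

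For siRNA 1423 against control, edgeR called all 102 genes lower, where 11.5% of all genes tested were called lower. The direct comparison of siRNA 1928 with siRNA 1423 called 93 of the 102 higher with siRNA 1928, against 21.3% of all genes tested. Both contrasts were used by the rule or follow from it, and the counts describe the choice. The 9 genes not called between the siRNAs had a median log2 ratio of -0.33 with siRNA 1423 and -0.12 with siRNA 1928, and 3 of them were among the 19 also called lower with siRNA 1928. Hence 76 genes, with TMM scaling, were called lower with siRNA 1423, called different between the siRNAs and not called with siRNA 1928. In that fit their log2 fold changes of siRNA 1928 to control ran from -0.205 to 0.086, so not called does not mean unchanged. The median level of the 76 was 35.8 CPM, against 112 CPM in the 16 genes called between the siRNAs and also called lower with siRNA 1928. The share of all genes tested with the pattern of the 76 was not counted, so nothing is read from that number.

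The set is a slice of a wider group. At the floor, 321 genes had a log2 ratio of siRNA 1423 to control of -0.3 or lower, and 300 of these had every siRNA 1423 library below every control library. With siRNA 1928, 141 of the 300 lay below -0.15, 102 within the limits and 57 above 0.15. The largest falls were not concentrated in the set: of 19 genes at the floor with a ratio of -0.7 or lower, 6 belonged to it. Around the limit of -0.3, the nearest genes inside had ratios of -0.301 and -0.303 and the nearest outside -0.299 and -0.297. At the lower siRNA 1928 limit the nearest were at -0.1499 and -0.1492 inside and -0.151 and -0.153 outside, and at the upper limit 0.143 and 0.143 inside and 0.153 and 0.156 outside. At the CPM floor they were at 10.1 and 10.2 inside and 9.78 and 9.75 outside. No gap in the values separated the set from its neighbours.

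The mirrored rule, for genes higher with siRNA 1423 and within the limits for siRNA 1928, gave 31 genes with a median log2 ratio of 0.36. With the siRNAs exchanged, the rule gave 437 genes lower with siRNA 1928 and within the limits for siRNA 1423, with a median of -0.46. With TMM in place of library size the 3 counts were 104, 41 and 610 in the order of the set, its mirror and the exchanged rule. The differences between these counts have no test.

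The rule was also applied to 9 libraries, without all 3 of a single replicate letter, and the ratios were read in the 3 left out. This split was chosen after seeing the data. The rule itself was set with earlier results of these data known, so the readings are no replication. Without letter A it chose 120 genes, of which 116 were lower with siRNA 1423 than control in the libraries of letter A. Without B the numbers were 115 and 111, without C 110 and 107, and without D 105 and 103. These are 96.7%, 96.5%, 97.3% and 98.1% of the chosen genes, where 48.5% to 52.8% of all genes at the floor were lower in the same pairs of libraries. The choices shared 88, 87, 77 and 83 genes with the 102, and with each other through the libraries in common, so the 4 readings are not independent. Whether the letters were separate cultures was not stated, so a left-out library may be a technical repeat of those used to choose. The shares are a description and no test.

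The sizes were read in the same way. The median log2 ratio of siRNA 1423 to control in the left-out libraries was -0.33 for A, -0.33 for B, -0.36 for C and -0.40 for D, where the libraries used for the choice gave -0.38, -0.39, -0.36 and -0.37. It was thus nearer 0 in A and B, about equal in C and further from 0 in D. A single pair reached the limit of -0.3 in 68 of 120, 73 of 115, 69 of 110 and 76 of 105 genes for A, B, C and D. Of all genes at the floor, 4.60%, 4.86%, 4.49% and 5.83% did. The median for siRNA 1928 in the left-out libraries was 0.052, 0.0034, 0.032 and 0.013. Within 0.15 of control lay 85 of 120, 77 of 115, 74 of 110 and 70 of 105 genes, against 47.7%, 51.1%, 49.7% and 51.0% of all genes at the floor. With 1 library per group in each reading there is no test.

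**Figure D5:**
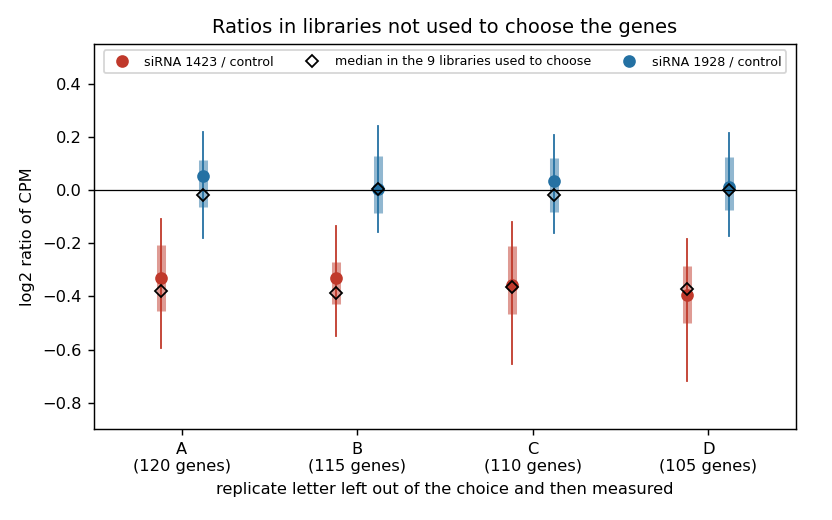
Log2 ratios of siRNA 1423 (red) and siRNA 1928 (blue) to control in the libraries of the letter left out of the choice (A to D, horizontal axis, with the number of genes chosen); points are medians over genes, thick bars quartiles, thin lines the 10th to 90th percentile, and open diamonds the median in the 9 libraries used to choose. The red medians lie between -0.40 and -0.33 and the blue ones between 0.0034 and 0.052.

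Expected counts need not be whole where a program divides reads between genes or transcripts. In 6 of the 102 genes (5.88%) the count was whole in all 12 libraries, against 3.46% of all genes at the floor. In 25 of the 102 it was whole in none, and since that share was not counted over all genes, nothing is read from it. The rule for dividing reads between closely similar genes is not given in the sources used here, so a gene of the set could carry reads of a relative.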

How the data were processed

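Expected counts per Ensembl gene ID were deposited by the authors for 12 libraries (0 columns of other samples). The unit is inferred: 71.3% of values over all 23978 genes, with any zeros counted as whole, were whole to within 1e-06. The submitters' processing notes name bcl2fastq 2.20, fastp 0.21.0, DESeq2 1.24.0 and the build mRatBN7.2. Aligner, counting program and annotation version: not given in the sources used here.

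CPM used the column sums. For the fits, counts were rounded, filtered with filterByExpr (minimum count 10; 12731 genes, all 102 of the set among them), normalised by TMM and fitted for edgeR's quasi-likelihood test (edgeR 4.0.16, limma 3.58.1, R 4.3.3), with 1 mean per group over all 12 libraries and Benjamini-Hochberg adjustment over all genes tested in each contrast. The procedure was tested on simulated data. DESeq2 1.42.0 and other settings were alternatives. Standard errors of fitted changes come from their F statistics. Within groups, the squared differences between the libraries of the 18 pairs averaged 1.94 to 5.90 times what counting noise gives. Each library was counted as a sample.

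The members and lists were chosen with earlier results of these data known. The reference table of GRCr8 genes used here lists an Ensembl ID for 0 of its 47357 entries, so 0 IDs could be matched, and 49 lists of pathway and marker genes, promoters and motifs were not used. Genes were to be named by lowest ratio, by abundance and by list. Without symbols, only 2 IDs are printed, and the other genes with the 12 lowest ratios or the 10 highest levels are given by rank or by range. Figures were drawn with matplotlib 3.10.9.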

Additional observations from a re-analysis of the deposited data

Results flagged for a closer look

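In groups of 4 libraries, a library was picked out when its distance to the nearest other took most of the group's range. Of 72 groups of values searched, 6 had such a library, and chance picks out about 1 in 20. ENSRNOG00000011052 was low in control library A, at 207 CPM. Among abundant genes of the set, control values were high in 1 library for rank 66 (428 CPM) and for rank 79 (231 CPM), and an siRNA 1423 value was low for rank 74 (377 CPM, library B). The gene of rank 4 was low in siRNA 1928 library A (28.7 CPM). The summed level of the set was also low in siRNA 1928 library A, at 9018 CPM, where the 3 others of the group lay between 9388 and 9427 CPM. Without the genes of ranks 82 and 74 library A was no longer the lowest of that group. The lowest was then library B, at 8001 CPM, and the highest library was at 8221 CPM. Differences between the siRNAs were not searched for here, since the rule selected for them.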

How the results depend on the processing

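The number of genes in the set followed its limits. It was 170 with a limit of -0.25 on the siRNA 1423 ratio and 61 with -0.35, and between 72 and 138 with the other limits tried. TMM scaling gave 104 genes, of which 84 were among the 102. Leaving out each of the 12 libraries gave 99 to 110 genes, of which 79 to 95 were among the 102, with the fewest shared without control library C. The median siRNA 1423 ratio ranged from -0.386 to -0.358 over these, the latter without control library D, and the median siRNA 1928 ratio became -0.063 with TMM. Leaving out all libraries of a letter was an alternative chosen after seeing the data.

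The counts of changed genes, 2903 for siRNA 1423 and 5752 for siRNA 1928 against control and 5645 between the siRNAs, stayed within 1.5 times under each alternative run. Calls of set genes with siRNA 1928 ranged over all settings from 9 to 23 lower and from 0 to 11 higher. Those lower with siRNA 1423 numbered 100 to 102, and those higher with siRNA 1928 than siRNA 1423 numbered 86 to 101. Same-lettered libraries of different groups deviated together only weakly, with r of 0.024 to 0.15 over 12 pairs, 5 of them over 0.1. Pairs with different letters had r of -0.19 to 0.20 over 36 pairs, also 5 of them over 0.1. In 5 of 12 libraries the best correlation was with their own letter. The letters were not taken as pairs, although all 12 same-lettered values were positive, and whether the letters share variation was not tested. With the letter as a replicate block more genes were called in each comparison, 3365, 6174 and 6017. Among them were 102 genes of the set lower with siRNA 1423, 23 lower and 2 higher with siRNA 1928, and 98 between the siRNAs. The standard error of the siRNA 1423 ratio was over 0.1 in 10 of 59 genes under 50 CPM, in 0 of 32 from 50 to 200 CPM and in 2 of 11 above.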
